A study of Mus musculus with 6 samples.

Results

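The 9 genes described here encode enzymes that carry acetyl-CoA through mevalonate to squalene epoxide: Acat2, Hmgcs1, Mvk, Pmvk, Mvd, Idi1, Fdps, Fdft1 and Sqle, in pathway order. They were taken by gene symbol, and all 9 were found among the 29872 genes of the series. RNA was sequenced from the hippocampus of C57BL/6J mice in 6 libraries. The 3 shHepaCAM libraries come from mice whose CA1 field was injected on both sides with AAV, a virus used to carry genes into cells, here with a short hairpin RNA against Hepacam; that gene encodes an adhesion molecule of glial cells. The 3 shControl libraries are labelled as wild type, and the labels do not state whether those mice received a vector, nor the animals' age, nor the promoter that drives the hairpin. Effects of lower Hepacam and of the injection, virus or hairpin therefore cannot be told apart between these groups. Nothing in the labels says that libraries of a group came from separate mice, so a p-value here reflects how much these libraries varied, and that variation may be technical. The study asked what hepaCAM does in the mouse hippocampus, and its title names cholesterol synthesis.

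In animal cells mevalonate is the precursor of isoprenoids. Its activated isoprene units are joined to farnesyl diphosphate, from which squalene and then sterols are made, while other branches lead to dolichol, ubiquinone and the lipid anchors of prenylated proteins. Brain cholesterol is made within the brain, because lipoprotein cholesterol does not cross the blood-brain barrier; in the adult brain astrocytes supply neurons with part of theirs, and oligodendrocytes need it for myelin. Transcription of the pathway's genes is raised by the factor SREBP-2 when sterols in the endoplasmic reticulum are low, and SREBP proteins act at sterol regulatory elements, usually with NF-Y at a CCAAT box and Sp1 at a GC box nearby.

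RefSeq promoter windows of 300 bases, from 250 before to 50 after the annotated start, were found for 6 of the 9 members (Acat2, Hmgcs1, Mvk, Pmvk, Mvd and Idi1). The windows of 4 genes are printed. They were chosen to span the range of change: Hmgcs1, with the largest change of the members on the log2(RPKM + 1) scale, Mvk, which fell less, Idi1, with the lowest level among those tested, and Pmvk, which did not pass the test and has 2 annotated starts. The windows are on build GRCm38.p6: Hmgcs1 at chr13:119690101-119690400 on the plus strand, Mvk at chr5:114444019-114444318 on the plus strand, Pmvk at chr3:89454291-89454590 and chr3:89459321-89459620 on the plus strand and Idi1 at chr13:8885356-8885655 on the plus strand. The expression values come from build mm39, so these coordinates are not those of the files. Capitals mark TCACCCCAC (a sterol regulatory element), CCAAT and GGGCGG (a GC box), each on either strand.
Hmgcs1: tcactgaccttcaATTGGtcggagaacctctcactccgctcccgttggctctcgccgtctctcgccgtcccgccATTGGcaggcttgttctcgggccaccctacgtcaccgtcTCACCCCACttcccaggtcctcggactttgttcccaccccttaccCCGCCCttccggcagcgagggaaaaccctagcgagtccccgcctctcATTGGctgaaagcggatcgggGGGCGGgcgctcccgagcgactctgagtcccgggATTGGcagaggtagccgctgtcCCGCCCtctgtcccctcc
Mvk: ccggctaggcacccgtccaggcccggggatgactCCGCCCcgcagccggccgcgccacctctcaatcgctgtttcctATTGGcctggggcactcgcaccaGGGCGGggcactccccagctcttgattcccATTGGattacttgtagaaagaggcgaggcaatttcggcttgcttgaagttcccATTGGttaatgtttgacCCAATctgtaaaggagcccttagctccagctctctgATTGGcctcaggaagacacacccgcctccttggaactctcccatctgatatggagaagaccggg
Idi1: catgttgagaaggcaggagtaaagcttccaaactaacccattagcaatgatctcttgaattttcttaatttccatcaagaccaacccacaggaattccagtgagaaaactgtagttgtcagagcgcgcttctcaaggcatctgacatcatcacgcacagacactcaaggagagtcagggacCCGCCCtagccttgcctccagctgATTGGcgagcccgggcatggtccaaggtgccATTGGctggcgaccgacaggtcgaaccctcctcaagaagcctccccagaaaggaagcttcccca
Pmvk, start 1: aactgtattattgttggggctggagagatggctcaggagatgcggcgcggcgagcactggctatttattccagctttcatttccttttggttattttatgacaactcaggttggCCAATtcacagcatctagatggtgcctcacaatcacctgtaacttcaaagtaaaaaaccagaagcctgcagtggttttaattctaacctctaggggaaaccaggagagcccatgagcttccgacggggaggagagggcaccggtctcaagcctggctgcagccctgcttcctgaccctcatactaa
Pmvk, start 2: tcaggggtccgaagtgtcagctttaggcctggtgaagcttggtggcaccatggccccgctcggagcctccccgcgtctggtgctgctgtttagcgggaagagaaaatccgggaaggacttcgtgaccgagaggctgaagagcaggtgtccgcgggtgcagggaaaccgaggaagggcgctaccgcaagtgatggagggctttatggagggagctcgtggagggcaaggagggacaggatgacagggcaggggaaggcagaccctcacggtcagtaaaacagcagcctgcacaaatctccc

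The Hmgcs1 window held 1 match to TCACCCCAC, 137 to 129 bases before the start, with 4 CCAAT and 3 GGGCGG matches around it. That sterol element occurs in 0.551% of all 32851 promoter windows of this length. A wider form, TCACNCCAC, occurs in 1.24% of windows, contains the first motif, and was found in the same place of Hmgcs1 and in no other member's window. The Mvk window held 5 CCAAT matches, from 173 to 10 bases before the start, and 2 GGGCGG matches; 1.06% of all windows hold 4 or more CCAAT matches. Mvd and Idi1 held 2 CCAAT and 1 GGGCGG match each. Hmgcs1, Mvk, Mvd and Idi1 thus held CCAAT together with GGGCGG, a combination found in 12.8% of all windows. Acat2 held 1 GGGCGG match and no CCAAT. The Pmvk windows differed from these 4: start 1 held 1 CCAAT match and start 2 held none of the motifs. The start 2 window appears to hold the enzyme's start codon well before the annotated start, so much of it may be coding sequence. Bases between the Pmvk windows were not searched, so a lack of motifs in the Pmvk promoter cannot be read from them. CCAAT occurs in 37.4% and GGGCGG in 35.7% of all windows, and matches of these boxes and of the sterol element did not overlap each other in the members; the wider form lay on the first form of the sterol element. These are matches of letters within the window, and occupancy was not measured.

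**Figure D1:**
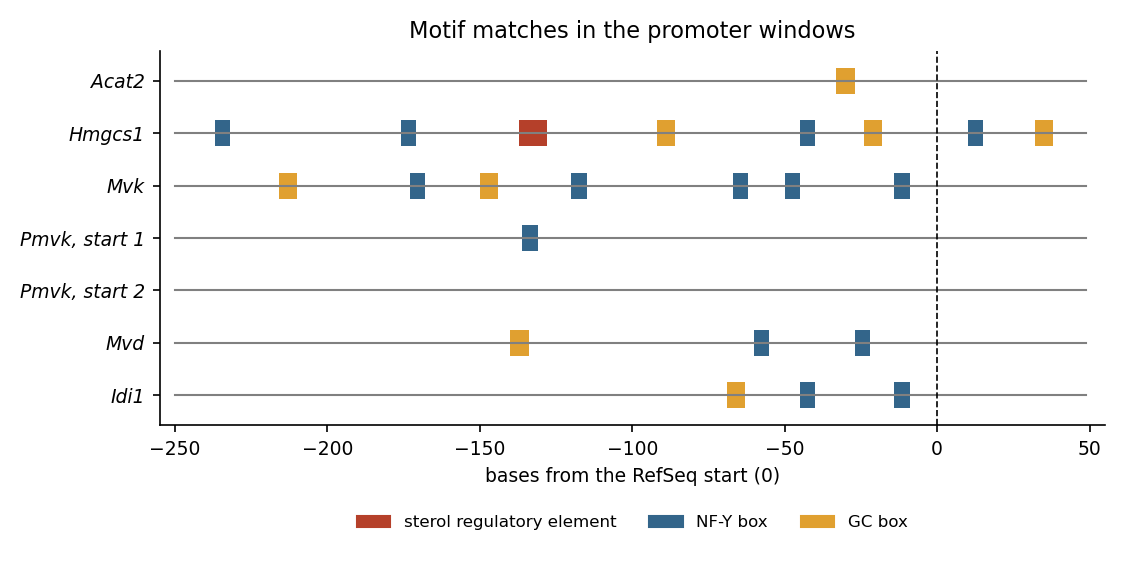
Matches to 3 motifs in the RefSeq promoter windows of 6 enzymes; the horizontal axis is the distance in bases from the annotated start at 0, and each bar covers the matched bases (the NF-Y box is the CCAAT match). The Hmgcs1 window holds the single sterol regulatory element, and the Pmvk windows hold 1 match between them.

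The deposited values are RPKM, reads per kilobase of gene scaled to sequencing depth, which makes levels of different genes comparable per length. Where a value is given for each library, replicates 1, 2 and 3 stand in that order. Between 15816576 and 16384937 reads stood behind the shHepaCAM libraries and between 14903198 and 17341842 behind the shControl libraries. Hepacam itself was lower in every knockdown library, at 22.6 ± 1.76 RPKM in shHepaCAM and 35.6 ± 1.98 RPKM in shControl (SD, n = 3 each; limma adjusted p = 0.00924, and 0.0533 without shControl replicate 3). Ttr, the leading transcript of choroid plexus, was at 2278, 1660 and 25.5 RPKM in the shHepaCAM libraries and at 62.1, 4192 and 3617 RPKM in the shControl libraries, so the libraries low in choroid plexus RNA were split between the groups. Markers of cell types are counted below by limma adjusted p under 0.05, at which 4.23% of all genes tested were higher and 1.84% lower. Of 8 microglia markers 5 rose and 0 fell, and their summed level ranged from 495 to 613 RPKM in shHepaCAM and from 278 to 328 RPKM in shControl. Of 8 neuron markers 3 fell and 0 rose (645 to 824 RPKM in shHepaCAM, 986 to 1023 RPKM in shControl), and of 8 astrocyte markers 1 fell (564 to 599 RPKM in shHepaCAM, 627 to 677 RPKM in shControl). None of the 8 oligodendrocyte markers passed the test, and their sum overlapped between groups, at 944 to 1428 RPKM in shHepaCAM and 911 to 1142 RPKM in shControl. None of the 4 oligodendrocyte precursor markers passed either. Their sum was higher without overlap, at 89.0 to 111 RPKM in shHepaCAM and 82.5 to 87.8 RPKM in shControl. Plasma cell markers, 4 in number, were the other list with calls, 3 of them higher, at a sum of 532 to 1851 RPKM in shHepaCAM and 23.4 to 30.2 RPKM in shControl. No marker of these lists was at 0 in all libraries, and the CA1 and hippocampal neuron markers summed to 241 to 300 RPKM in shHepaCAM and 246 to 258 RPKM in shControl. The part of these shifts in the results for the enzymes was not tested; in whole tissue, fewer cells of a type and less RNA per cell cannot be told apart.

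Transcripts of the mevalonate to squalene enzymes were lower in knockdown hippocampus. Of the 9 members, 8 passed the filter of a mean of 1 RPKM, and 7 of these 8 fell (limma adjusted p under 0.05 over all genes tested), 0 rose and Pmvk did not pass. Among all 13864 genes tested, 1.84% were called lower and 4.23% higher, 6.07% in all; the higher share depends on scaling, with 341 genes lower and 390 higher after quantile normalization, against 255 lower and 587 higher as deposited. The median log2 change of the 8 members was -1.02, against 0.05 over all genes tested. In 7 of the 8 the groups did not overlap, with every shHepaCAM library below every shControl library; this held for 10.7% of all genes tested. The summed level of the 9 members was 74.2, 61.8 and 57.3 RPKM in the shHepaCAM libraries and 132, 126 and 125 RPKM in the shControl libraries, a mean 49.5% lower. Because the title of the study names the pathway from these libraries, the members are not independent evidence of its direction. Calls numbered 5, 4 and 4 without shControl replicates 1, 2 and 3, and 4 without both shControl replicate 1 and shHepaCAM replicate 3, the libraries low in choroid plexus RNA.

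**Figure D2:**
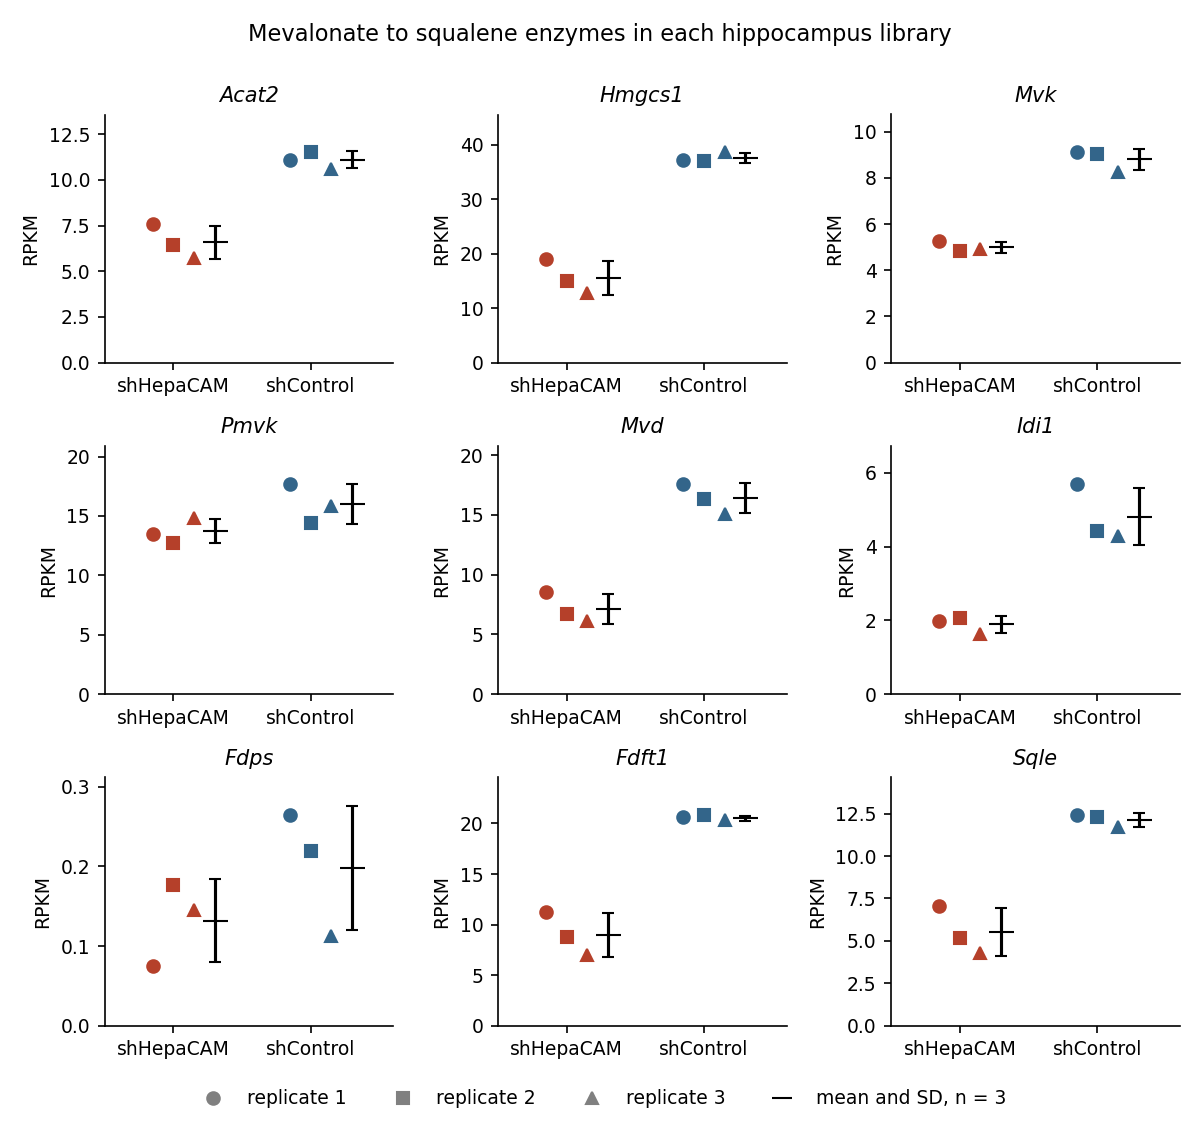
RPKM of each of the 9 enzymes in each library, shHepaCAM left and shControl right, with the mean and SD of 3 libraries; vertical axes start at 0 and differ between panels. The groups are apart in 7 panels and overlap for Pmvk and Fdps.

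At the entry of the pathway, both cytosolic enzymes fell. Acat2 (ENSMUSG00000023832, chromosome 17), the thiolase that joins acetyl-CoA units to acetoacetyl-CoA, was at 7.56, 6.46 and 5.73 RPKM in the shHepaCAM libraries and at 11.1, 11.5 and 10.6 RPKM in the shControl libraries. All knockdown libraries were below all control libraries, and the mean was 40.7% lower (log2 change -0.68, SE 0.10, limma adjusted p = 0.0145). Hmgcs1 (ENSMUSG00000093930, chromosome 13), the synthase that adds a further acetyl-CoA to give HMG-CoA, was at 19.0, 14.9 and 12.8 RPKM in the shHepaCAM libraries and at 37.2, 37.0 and 38.6 RPKM in the shControl libraries. The control libraries of Hmgcs1 lay close together and the knockdown libraries spread more, with the lowest in shHepaCAM replicate 3. The mean was 15.6 ± 3.12 RPKM in shHepaCAM and 37.6 ± 0.862 RPKM in shControl (SD, n = 3 each), 58.6% lower. Its log2 change of -1.24 (SE 0.13, limma adjusted p = 0.0052) ranked 11 from the lowest among all genes tested. Acat2 lost the call without any one shControl library, with adjusted p-values of 0.0534, 0.0721 and 0.0638 without replicates 1, 2 and 3, and Hmgcs1 kept it in all 16 alternatives (adjusted p of 0.00129 to 0.0381).

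The next steps phosphorylate mevalonate and decarboxylate it to isopentenyl diphosphate, where Mvk and Mvd fell and Pmvk did not pass the test. Mvk (ENSMUSG00000041939, chromosome 5), mevalonate kinase, was at 5.25, 4.82 and 4.91 RPKM in the shHepaCAM libraries and at 9.11, 9.05 and 8.28 RPKM in the shControl libraries, with no overlap and a mean 43.4% lower (log2 change -0.71, SE 0.07, limma adjusted p = 0.0052). Pmvk (ENSMUSG00000027952, chromosome 3), phosphomevalonate kinase, was at 13.5, 12.7 and 14.8 RPKM in the shHepaCAM libraries and at 17.7, 14.4 and 15.8 RPKM in the shControl libraries. For Pmvk the groups overlapped, since shHepaCAM replicate 3 was above shControl replicate 2. Its log2 change was -0.21 with a 95% interval of -0.42 to 0.01 (limma adjusted p = 0.218), and it did not pass in any of 16 alternatives (adjusted p of 0.142 to 0.438). Mvd (ENSMUSG00000006517, chromosome 8), the decarboxylase that follows, was at 8.54, 6.73 and 6.11 RPKM in the shHepaCAM libraries and at 17.6, 16.3 and 15.1 RPKM in the shControl libraries. All knockdown libraries were again below all control libraries, with a mean 56.5% lower (log2 change -1.10, SE 0.12, limma adjusted p = 0.00624). Mvd was called in all 16 alternatives; Mvk was called in 15, missing the threshold once the 2 libraries low in choroid plexus RNA were both left out (adjusted p = 0.0555).

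Idi1 and Fdps handle the isoprene units. Idi1 (ENSMUSG00000058258, chromosome 13), which converts isopentenyl to dimethylallyl diphosphate, was at 1.98, 2.07 and 1.62 RPKM in the shHepaCAM libraries and at 5.70, 4.43 and 4.29 RPKM in the shControl libraries. The groups did not overlap, and the mean was 60.7% lower in knockdown, on 93 to 117 reads per shHepaCAM library and 224 to 342 reads per shControl library. The 95% interval of its log2 change was -1.29 to -0.71 (SE 0.12, limma adjusted p = 0.00924). That scale carries a pseudocount of 1, which understates the change of low genes; with a pseudocount of 0.1 the change was -1.30, against -1.29 for Hmgcs1, so which of the pair changed more depends on the scale. Fdps (ENSMUSG00000059743, chromosome 3), which joins the units to farnesyl diphosphate, lay under the filter and was not tested. It was at 0.0751, 0.177 and 0.145 RPKM in the shHepaCAM libraries and at 0.264, 0.219 and 0.112 RPKM in the shControl libraries, with overlapping groups. These levels rest on 27 reads over the shHepaCAM and 42 over the shControl libraries, a ratio of 0.656 with an exact 95% counting interval of 0.389 to 1.09. Without shControl replicate 3 the ratio was 0.550, with an interval of 0.320 to 0.935, so that library decides whether the interval includes equal levels; the intervals cover counting error only. How reads that match several places were counted is unknown here, so the Fdps values are those listed in the files and may not be the level of the transcript. In GENCODE M21, exons of Gm43738 on the same strand cover 26.7% of the Fdps exon bases; Gm43738 itself had 1 read over all libraries.

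The last members commit farnesyl diphosphate to sterols, and both fell. Fdft1 (ENSMUSG00000021273, chromosome 14), squalene synthase, was at 11.2, 8.72 and 6.96 RPKM in the shHepaCAM libraries and at 20.6, 20.8 and 20.3 RPKM in the shControl libraries. Its control libraries were nearly level and its knockdown libraries spread widely, with a mean of 8.97 ± 2.15 RPKM in shHepaCAM and 20.5 ± 0.255 RPKM in shControl (SD, n = 3 each), 56.3% lower. The log2 change was -1.13 (SE 0.14, limma adjusted p = 0.0101). Sqle (ENSMUSG00000022351, chromosome 15), squalene epoxidase, which adds the oxygen that sterols keep, was at 7.08, 5.18 and 4.30 RPKM in the shHepaCAM libraries and at 12.4, 12.3 and 11.7 RPKM in the shControl libraries. It showed the same order of libraries within the knockdown group as Fdft1, and its mean was 54.5% lower (log2 change -1.03, SE 0.14, limma adjusted p = 0.0141). Fdft1 missed the threshold without shControl replicate 2 or 3 (adjusted p = 0.0543 and 0.0535), and Sqle without any one of the shControl replicates (adjusted p = 0.0528, 0.0665 and 0.0651 without replicates 1, 2 and 3). Exons of Ctsb, a lysosomal protease on the opposite strand, cover 18.3% of the Fdft1 exon bases, and the sources used here do not give the strand setting of the counting; reads in the shared bases cannot be told apart. Ctsb stood higher in knockdown libraries, at 146 ± 16.0 RPKM in shHepaCAM and 121 ± 4.75 RPKM in shControl (SD, n = 3 each; limma adjusted p = 0.127), and the part of those reads in the Fdft1 value was not tested.

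The sizes of the members' changes were compared pair by pair, and no pair passed the test. For each pair of the 8 tested, the log2 ratio of their RPKM within a library was compared between groups, which does not depend on how libraries are scaled. The groups did not overlap for 18 of 28 pairs, against 30.3% of all pairs of genes tested. The ratios of Pmvk to each of the other 7 did not overlap between groups, with differences of 0.54 to 1.12 in log2 ratio. The ratio of Acat2 to Mvk overlapped (difference 0.06), and the ratios of these enzymes to Hmgcs1, Mvd, Idi1, Fdft1 and Sqle did not in all 10 such pairs, with differences of 0.35 to 0.58 toward a smaller change of Acat2 and Mvk. Among those 5 enzymes the differences were 0.01 to 0.18, and the groups overlapped for 9 of 10 pairs; the exception was Hmgcs1 with Sqle, by -0.12. This grouping of the pairs was made after the values were seen. With 3 libraries against 3 the exact two-sided permutation test cannot go below p = 0.1, and adjusted over the 28 pairs the smallest p was 0.156.

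**Figure D3:**
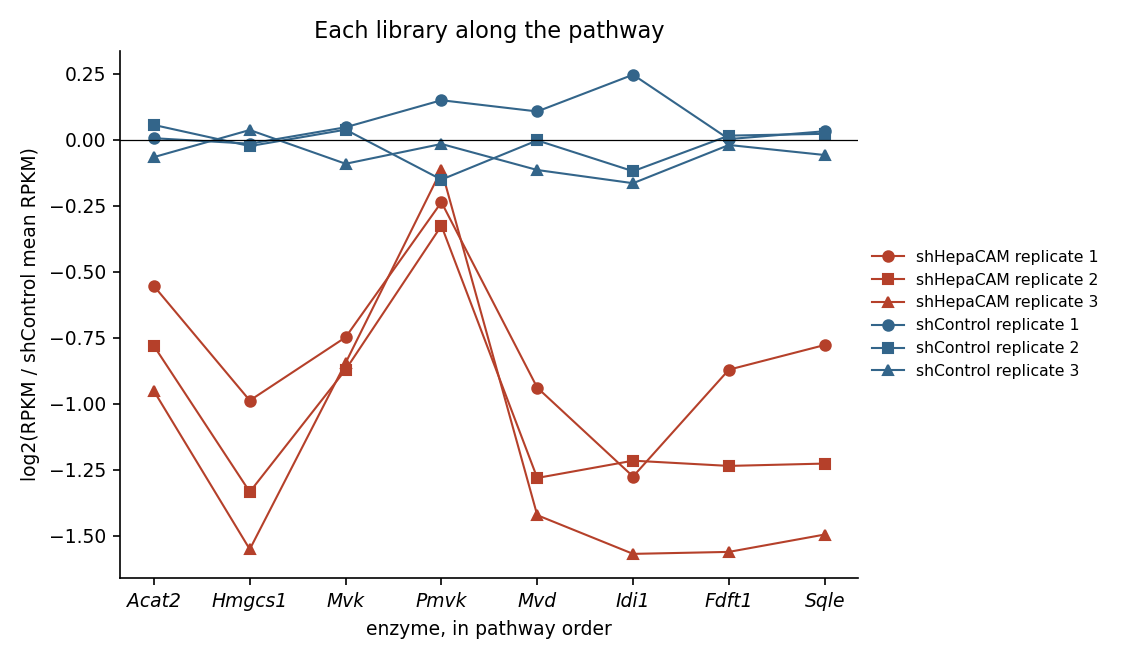
The log2 ratio of each library's RPKM to the shControl mean for the 8 enzymes tested, in pathway order; each line is a library. The knockdown lines lie between -0.55 and -1.57 except at Pmvk, where they lie between -0.11 and -0.33 and meet the control lines.

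The order of levels, per length, differed between the groups. In shControl it was Hmgcs1, Fdft1, Mvd, Pmvk, Sqle, Acat2, Mvk, Idi1 and Fdps, and Mvd and Pmvk were the only neighbours whose ranges overlapped. In shHepaCAM it was Hmgcs1, Pmvk, Fdft1, Mvd, Acat2, Sqle, Mvk, Idi1 and Fdps. There the ranges of Hmgcs1 and Pmvk overlapped, as did those of the neighbours Fdft1 and Mvd, Mvd and Acat2, Acat2 and Sqle, and Sqle and Mvk. Pmvk made up 21.5 ± 3.82% of the summed RPKM of the 9 members in shHepaCAM and 12.5 ± 1.03% in shControl, and Hmgcs1 24.0 ± 1.59% in shHepaCAM and 29.5 ± 1.36% in shControl (SD, n = 3 each). Neither share overlapped between groups (exact two-sided permutation p = 0.1, the smallest possible). The same held for Acat2, whose share was higher in shHepaCAM, and for Mvd, Idi1 and Fdft1, whose shares were lower. Shares of Mvk, Fdps and Sqle overlapped. The shares of a library add up to the whole, so a fall of some raises the others. They come from the same RPKM values as the calls and the pair ratios, so they are not separate evidence. How often shares in other gene sets do not overlap was not worked out. For ratios of 2 genes it was 30.3% of all pairs tested.

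Within the knockdown group, shHepaCAM replicate 3 was the lowest library for 6 of the 8 members tested and shHepaCAM replicate 1 the highest for 6. The median log2 ratio of the 8 members to the shControl mean was -0.82, -1.22 and -1.46 in shHepaCAM replicates 1, 2 and 3. In shControl replicates 1, 2 and 3 it was 0.04, 0.01 and -0.06. Hepacam was at 24.4, 22.6 and 20.9 RPKM in the shHepaCAM libraries, so the knockdown library with the lowest Hepacam also had the lowest median of the enzymes; 3 libraries allow no test of this. The same library, shHepaCAM replicate 3, was the one low in choroid plexus RNA, while shControl replicate 1, likewise low in it, was the highest control library for 5 of 8 members.

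Neighbouring pathways gave a mixed picture. Of 9 enzymes from lanosterol to cholesterol, 4 fell and 0 rose, with a median log2 change of -0.62. Calls over all genes tested were 1.84% lower and 4.23% higher. Msmo1, a sterol methyl oxidase, Sc5d, a sterol desaturase, Cyp51, which demethylates lanosterol, and Hsd17b7, a ketosteroid reductase, changed by -1.38, -0.62, -0.79 and -0.77 on the log2 scale (limma adjusted p = 0.0161, 0.00777, 0.0415 and 0.00901). In the alternative settings Cyp51 was called in 7 of 16, Msmo1 in 12 of 16, Hsd17b7 in 12 of 15 and Sc5d in 14 of 16. The count of 4 became 8 with quantile normalization or with scaling on the median gene, and 2, 2 and 0 without shControl replicates 1, 2 and 3. Of 13 enzymes that use the same isoprenoid precursors for products other than sterols, 0 fell and 0 rose, and the median was 0.05, that of all genes tested. The smallest p-values in that list belonged to Rabggtb, a subunit that prenylates Rab proteins, and Dolk, dolichol kinase, at 0.20 and -0.24 (limma adjusted p = 0.158 and 0.26). None of 6 mitochondrial thiolase, HMG-CoA and ketone body enzymes passed (median -0.09). Among them Acat1, the mitochondrial counterpart of Acat2, was at -0.17 and Bdh1, which interconverts hydroxybutyrate and acetoacetate, at 0.22 (limma adjusted p = 0.159 and 0.118). At an unadjusted limma p under 0.05, 7.92% of all genes tested were lower and 16.3% higher. By that count 8 of the 9 later sterol enzymes were lower and 0 higher, 1 of the 13 was higher and 0 lower, and of the 6 mitochondrial and ketone body enzymes 1 was lower and 1 higher. The non-sterol isoprenoid list and the mitochondrial list had adjusted counts of 0 in every alternative run, limma-voom on whole reads included.

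The machinery that senses sterols was also measured. Of its 7 genes, Srebf2, which encodes SREBP-2, and Insig1, which holds SREBP in the endoplasmic reticulum and is itself a sterol-responsive gene, fell, and 0 rose; Srebf1, Scap, Insig2, Mbtps1 and Mbtps2 did not pass. Srebf2 was at 39.0, 44.2 and 37.0 RPKM in the shHepaCAM libraries and at 54.5, 56.2 and 57.4 RPKM in the shControl libraries (log2 change -0.48, SE 0.07, limma adjusted p = 0.0194). Insig1 was at 12.8, 13.7 and 9.02 RPKM in the shHepaCAM libraries and at 29.5, 22.7 and 20.2 RPKM in the shControl libraries (log2 change -0.97, SE 0.18, limma adjusted p = 0.0299). Neither gene's groups overlapped. For comparison, 1.84% of all genes tested were called lower. In 10.7% of them every shHepaCAM library was below every shControl library. The list's median was -0.01, and its count of 2 became 1 without shHepaCAM replicate 2 or 3 and 0 without any one shControl replicate.

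**Figure D4:**
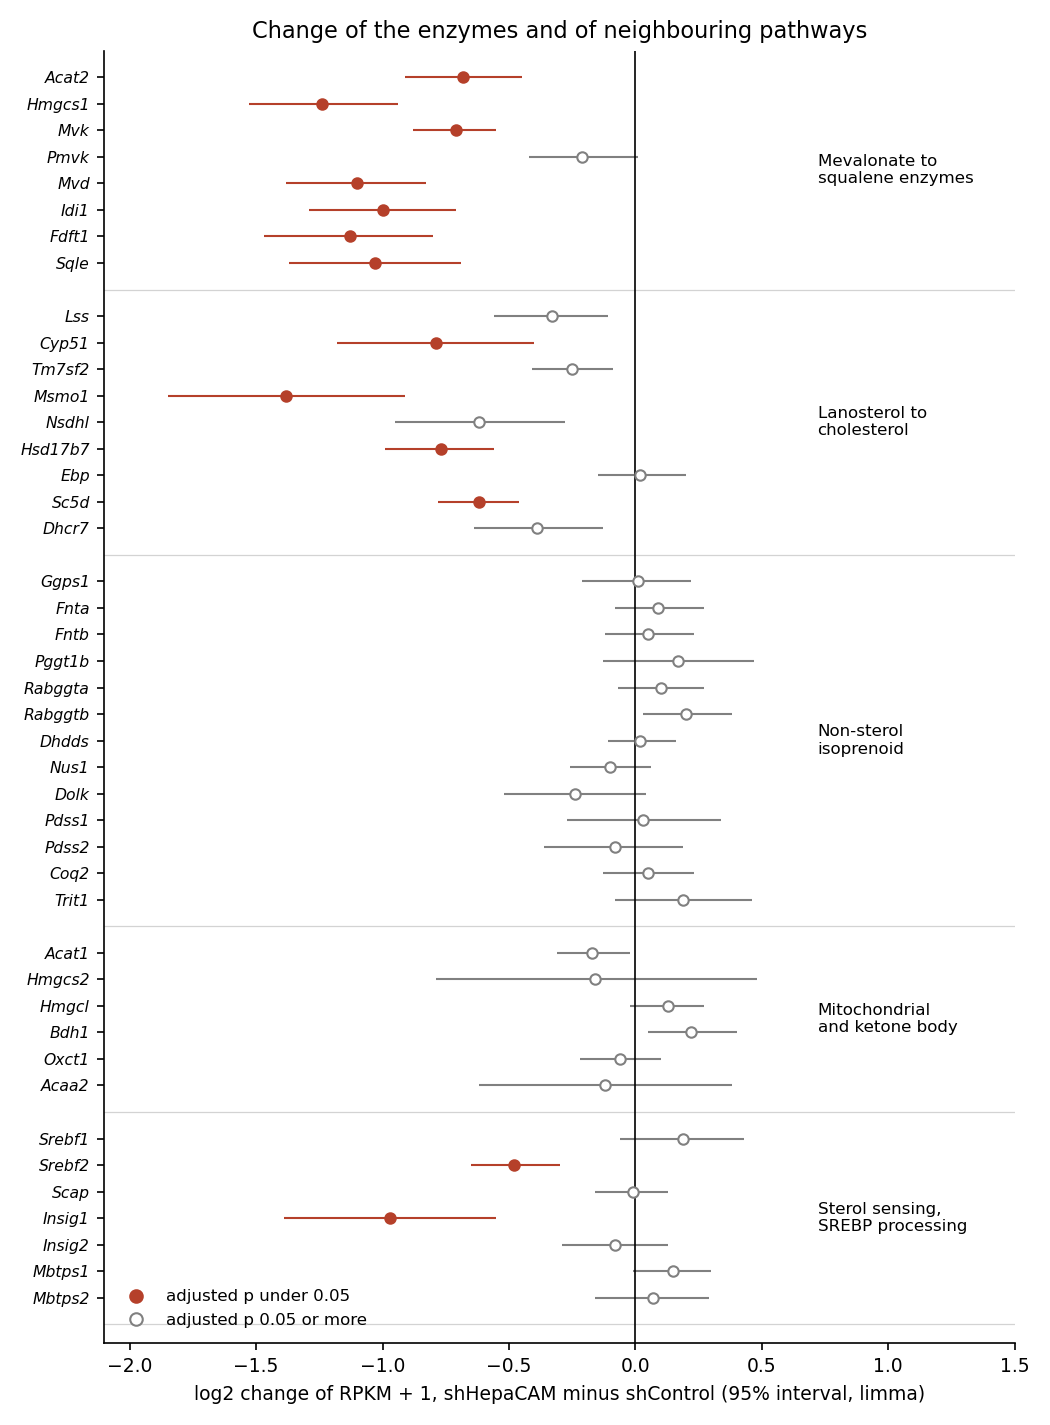
Log2 change with its 95% interval for the 8 enzymes tested and for 4 lists of neighbouring genes, shHepaCAM minus shControl; filled points have an adjusted p under 0.05. The filled points lie between -0.48 and -1.38, and the points of the non-sterol isoprenoid list lie between -0.24 and 0.20.

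Mvk lies head to head with Mmab, an enzyme of vitamin B12 metabolism that is transcribed in the other direction. In GENCODE M21 their annotated starts lie 209 bases apart. Mmab was at 7.46, 6.77 and 6.70 RPKM in the shHepaCAM libraries and at 9.68, 9.54 and 9.49 RPKM in the shControl libraries. It fell, and the groups did not overlap (log2 change -0.41, SE 0.07, limma adjusted p = 0.0204). The call was lost without shHepaCAM replicate 3 (adjusted p = 0.0587) and without shControl replicates 1, 2 and 3 (adjusted p = 0.0704, 0.0891 and 0.0946). It was also lost with no filter, with the replicate number as a block and without both libraries low in choroid plexus RNA (adjusted p = 0.0507, 0.078 and 0.132). Mmab was looked up after the data were seen, by its position.

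Genes most like the members were ranked by the root mean square difference, over the 6 libraries, between their log2(RPKM + 1) centred on the shControl mean and the average of the 8 members centred the same way. The closest were Bsn, a scaffold protein of presynaptic active zones (0.07), Smoc2, an extracellular calcium-binding protein (0.08), Tmem28 (0.10), St3gal1, a sialyltransferase (0.11), Rreb1, a zinc finger transcription factor (0.11), and Hsd17b7 (0.11). The members themselves differed from their own average by 0.13 to 0.50, with Pmvk the farthest. Bsn stood at 17.1 ± 2.41 RPKM in shHepaCAM and 30.7 ± 0.641 RPKM in shControl (SD, n = 3 each). The log2 changes of the 6 lay between -0.75 and -0.95; their direction follows from the way they were chosen, so no test is given. Hsd17b7 was the only one of them in a list of pathway genes above.

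Across 16 alternative settings of the processing, Hmgcs1 and Mvd were called lower in 16, Mvk in 15, Fdft1 in 14 and Acat2 and Sqle in 11 each. Idi1 was called in all 15 settings in which it was tested, and Pmvk in 0. The calls of Acat2 and Sqle were lost in the same settings, those without a shControl library, without both libraries low in choroid plexus RNA, and with no filter.

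**Figure D5:**
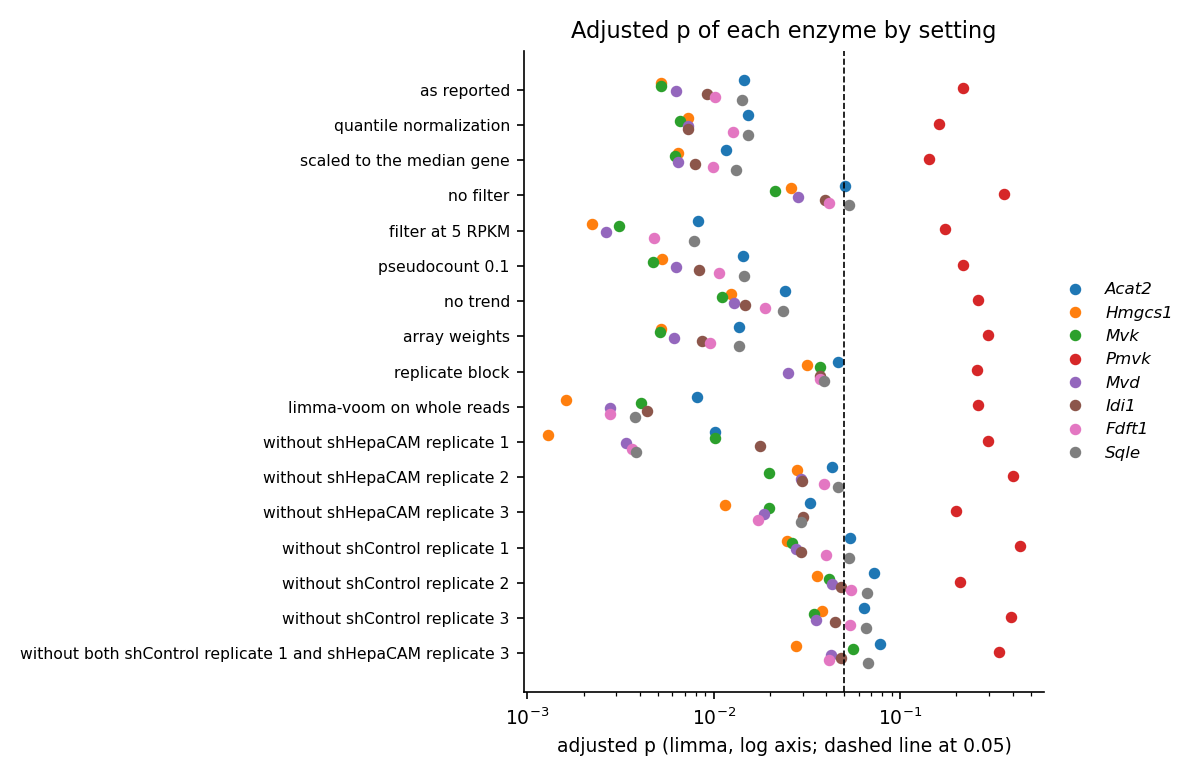
Adjusted p of the 8 enzymes under the reported setting and 16 alternatives, on a log axis with a dashed line at 0.05; Idi1 has no value with the filter at 5 RPKM. Hmgcs1, Mvd and Idi1 stay left of the line wherever they were tested, and Pmvk stays right of it.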

How the data were processed

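RNA-seq of hippocampus was analysed from 1 deposited table per library. The authors deposited RPKM. The submitters' processing notes name Bowtie2 2.0.6 and TopHat2 2.0.12 as tools and mm39 as build; counter, annotation and strandedness: not given in the sources used here. Groups and replicate numbers came from library titles. Symbols were found for 29805 of 29872 identifiers. With GENCODE M21 exon lengths, 27390 genes (91.9% of those with a length) gave whole reads within 0.01 read in every library; these served for depth, read numbers and 1 alternative. Counting intervals are at the 95% level and cover counting error only.

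Genes averaging 1 RPKM or more were tested on log2(RPKM + 1) in R 4.3.3 by limma 3.58.1, with the prior variance following the mean, Benjamini-Hochberg adjusted over all genes tested at 0.05; it was tested on simulated data. The members, lists, alternatives and rule for named genes (all members, Hepacam, called list genes or the 2 with the smallest p, and the 6 genes most like the members) were chosen with earlier results of these data known. A gene of these lists is not reported here. Predicted genes and pseudogenes were left out of the last. Motifs were searched in RefSeq promoter windows of GRCm38.p6. Plots used Python 3.11.15 and matplotlib 3.10.9.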

Additional observations from a re-analysis of the deposited data

How the results depend on the processing

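The 7 enzyme calls held with quantile normalization, scaling to the median gene, a pseudocount of 0.1, no trend, array weights and limma-voom on whole reads (run on the 12152 tested genes that gave whole reads). With no filter 5 were called, since Acat2 and Sqle missed the threshold (adjusted p = 0.0504 and 0.0529), and with a filter at 5 RPKM 6 of 7. Leaving out single libraries gave 4 to 7 calls, and there were 4 without both libraries low in choroid plexus RNA. No change of an enzyme turned sign, and their median ran from -0.85 to -1.19. Hepacam changed by -0.58 to -0.68 with single libraries left out, and by -0.54 without both libraries low in choroid plexus RNA (adjusted p = 0.0664). The ratio for Fdps ran from 0.547 to 0.795, and pairs of enzymes without overlap numbered 18 to 20, with single libraries left out.

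Over all genes, 255 were called lower and 587 higher. The higher count was 390 with quantile normalization (341 lower) and 336 with scaling to the median gene (347 lower). Lower and higher counts were 48 and 121 with no filter, 45 and 112 with the replicate block, 17 and 104 without both libraries low in choroid plexus RNA, and 19 to 325 and 66 to 555 with single libraries left out; with no trend 153 were lower. Later sterol enzymes called lower numbered 8 under either other scaling, 2 with no filter and with the replicate block, 1 without both those libraries, and 0 to 4 with single libraries left out. Sterol sensing genes called lower numbered 0 with no filter and without both those libraries, 1 with the replicate block, 1 of 6 with limma-voom, where Srebf2 gave no whole reads and was not tested, and 0 to 2 with single libraries left out. The cause of the other shifts was not tested.

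Replicate numbers are shared between groups, but same-numbered libraries did not deviate together (correlations across genes of -0.21, 0.02 and -0.14 for numbers 1, 2 and 3). With the replicate block all 7 enzymes were called (adjusted p of 0.025 to 0.0461).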
